A study of Mus musculus with 20 samples.

Results

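Hmgcs1, Sqle, Idi1, Insig1, Fdps, Srebf2 and Lss belong to the cholesterol synthesis pathway that the transcription factor SREBP2 controls, and their expression was followed through 20 libraries of mouse myotubes. The 7 genes were chosen by symbol from the 26722 genes of the count table, and all 7 passed the filter on low counts that left 14605 genes to be tested. Across the 5 treatments 0 of the 7 passed the test, where 0% of all genes passed. Replicates 1-2 and replicates 3-4 of all treatments, called the replicate pairs here, separated the libraries. Between them Insig1 fell by 0.33 on the log2 scale, in a test that 13.1% of all genes passed, and the 6 other genes did not pass.

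Cells make cholesterol from acetyl-CoA through the mevalonate pathway, and farnesyl diphosphate, an intermediate of it, also feeds protein prenylation, dolichol and ubiquinone. SREBP2, the product of Srebf2, is held in the endoplasmic reticulum by the escort protein Scap and the Insig proteins while sterols are plentiful. When sterols fall, it is carried to the Golgi, cut by proteases and enters the nucleus, where it switches on the enzymes of the pathway and Insig1 itself.

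C2C12 cells, mouse myoblasts that fuse into myotubes, were differentiated for 5 days in horse serum medium and then exposed for 16 h to antibodies against MuSK, the receptor tyrosine kinase of the neuromuscular synapse, with or without neural agrin, which activates MuSK. All groups received 7.7 nM antibody. The control group received b12, a human IgG4 negative control antibody, and the 13-3B5 group a bivalent, activating human IgG4 antibody. Neural agrin at 0.1 nM was combined with b12 (the agrin group), with 13-3B5xb12 or with 11-3F6xb12, monovalent antibodies that the labels call inhibiting. Each treatment had 4 replicates, and the labels do not say what separates them or what libraries with the same replicate number share. The p-values therefore measure the spread between these libraries, which may be technical in part. All libraries come from 1 cell line, and in such bulk RNA fewer cells of a type and less RNA per cell cannot be told apart.

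Total counts were 18424881 to 23343903 per library. The first principal component of all libraries held 20.98% of the variance and separated replicates 1-2 from replicates 3-4. Mitochondrial genes took 30.2% to 39.1% of the counts in replicates 1-2 and 27.9% to 32.5% in replicates 3-4. The summed level of 10 myotube markers, among them Acta1, Myh3 and Myog, was 10328 to 11671 CPM, counts scaled to a common library total, in replicates 1-2 and 9514 to 11022 CPM in replicates 3-4, so the labelled cell type carried its defining genes. The 8 markers of dividing myoblasts summed to between 126 and 239 CPM, and the 6 fibroblast markers to 4910 to 5485 CPM in replicates 1-2 and 4263 to 5165 CPM in replicates 3-4. The sums of the adipocyte, macrophage and endothelial markers stayed at or under 2.03 CPM. Liver markers summed to 25.7 CPM in agrin replicate 3 and to at most 1.04 CPM in any other library, so the main differences and correlations that it enters are also given without it.

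Promoter windows from RefSeq (GRCm38.p6) were at hand for 5 of the 7 genes, each 300 bases long, from 250 before to 50 after the annotated start. The set of windows used held none for Sqle and Fdps. Each of the 5 was searched on both strands for the sterol element CACNCCAC, an overlapping form of it, TCACNCCA, and the CCAAT box, to which NF-Y, a partner of SREBP proteins, binds. Either sterol form was present in 3 of the 5, against 9.18% of 32851 promoters of the same length, and CCAAT in 5 of 5, against 37.4% of those promoters. The second form was added after the first search. These 3 windows are the ones with a sterol form, and they belong to the gene that differed between the replicate pairs, to Hmgcs1, the enzyme its counts are set against, and to the regulator of both. Each lies on the plus strand, at chr5:28071162-28071461 for Insig1, chr13:119690101-119690400 for Hmgcs1 and chr15:82147019-82147318 for Srebf2. Capitals mark the sterol forms and CCAAT, which reads ATTGG on the opposite strand.
Insig1: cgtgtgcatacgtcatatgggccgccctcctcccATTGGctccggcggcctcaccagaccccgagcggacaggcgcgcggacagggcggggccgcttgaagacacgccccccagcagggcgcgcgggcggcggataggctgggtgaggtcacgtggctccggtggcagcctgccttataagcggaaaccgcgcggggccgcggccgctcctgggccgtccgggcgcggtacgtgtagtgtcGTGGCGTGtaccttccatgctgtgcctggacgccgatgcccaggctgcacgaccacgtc
Hmgcs1: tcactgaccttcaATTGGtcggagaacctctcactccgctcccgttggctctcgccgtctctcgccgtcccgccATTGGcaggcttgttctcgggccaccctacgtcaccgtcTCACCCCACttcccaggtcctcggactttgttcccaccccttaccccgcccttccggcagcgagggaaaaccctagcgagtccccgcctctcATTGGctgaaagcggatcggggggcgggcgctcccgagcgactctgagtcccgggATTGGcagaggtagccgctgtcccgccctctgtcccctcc
Srebf2: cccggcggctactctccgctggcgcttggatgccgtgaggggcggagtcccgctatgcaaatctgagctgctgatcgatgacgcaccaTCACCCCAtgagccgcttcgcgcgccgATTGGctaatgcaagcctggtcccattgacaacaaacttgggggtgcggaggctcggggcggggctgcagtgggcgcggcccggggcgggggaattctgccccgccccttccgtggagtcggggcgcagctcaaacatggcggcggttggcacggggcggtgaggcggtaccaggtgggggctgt
The first sterol form stood at position -136 in Hmgcs1, counted from the start site, and at -9 on the minus strand in Insig1. The second form stood at -162 in Srebf2 and at -137 in Hmgcs1, where it overlaps the first. A match is a description of the letters and not a measured binding site.

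The members differed widely in level. Per kilobase of exon, Insig1, which retains SREBP2 in the endoplasmic reticulum, was highest at 40.6 CPM per kb, followed by Hmgcs1, the enzyme that makes HMG-CoA, at 30.3 CPM per kb. Squalene epoxidase, the product of Sqle, stood at 14.04 CPM per kb. Srebf2 itself was at 7.27, the isopentenyl diphosphate isomerase gene Idi1 at 3.66, the lanosterol synthase gene Lss at 2.37 and the farnesyl diphosphate synthase gene Fdps at 1.44 CPM per kb. Fdps had only 100 to 170 counts in a library, and 26.7% of its exon bases overlap Gm43738 on the same strand, so its level is uncertain. Hmgcs1, Idi1 and Lss overlap genes on the opposite strand over 12.1%, 9.22% and 3.53% of their exon bases, and those genes had 82, 48 and 0 counts in all 20 libraries together.

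The genes lie on 5 chromosomes of GRCm38, with positions from GENCODE release M21. Insig1 (ENSMUSG00000045294) spans chr5:28071363-28078662, Srebf2 (ENSMUSG00000022463) chr15:82147181-82205379 and Hmgcs1 (ENSMUSG00000093930) chr13:119690379-119708260, all on the plus strand. Idi1 (ENSMUSG00000058258) spans chr13:8885501-8892451, Sqle (ENSMUSG00000022351) chr15:59315077-59331192 and Lss (ENSMUSG00000033105) chr10:76531588-76557138, also on the plus strand. Fdps (ENSMUSG00000059743) spans chr3:89093588-89101959 on the minus strand. The intronic microRNA gene Mir33 lies within Srebf2 and had 0 counts.

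The first question was whether activating MuSK, or blocking its activation, changed these genes. In each of 8 comparisons between treatments 0 of the 7 passed at a Benjamini-Hochberg adjusted p under 0.05 in edgeR's quasi-likelihood test, where 0% of all 14605 genes passed. DESeq2's Wald test called 0 of the 7 as well, and its share of all genes was not counted. At an unadjusted p under 0.05, edgeR found 1 of the 7 for 13-3B5 against the control, beside 2.77% of all genes, and 0 in the others. Those were agrin against the control (2.85% of all genes), 13-3B5xb12 against the control (2.39%) and 11-3F6xb12 against the control (3.25%), 13-3B5, 13-3B5xb12 and 11-3F6xb12 against agrin (2.39%, 3.83% and 3.33%) and the 2 inhibiting antibodies against each other (4.22%). With the replicate number as a block 0 of the 7 passed as well, beside 0% of all genes in 5 comparisons and 0.0137%, 0.0205% and 0.0342% for 11-3F6xb12 against agrin, the control and 13-3B5xb12. Before adjustment the block gave 2 of the 7 for 13-3B5 against the control, Hmgcs1 and Insig1, beside 3.96% of all genes. It gave 1 of the 7 for agrin and for 11-3F6xb12 against the control, Insig1 in both (3.98% and 4.64% of all genes), 1 for 13-3B5 against agrin, Hmgcs1 (3.01%), and 1 for 11-3F6xb12 against 13-3B5xb12, Srebf2 (6.19%). In the 3 others, 13-3B5xb12 against the control and both inhibiting antibodies against agrin, it gave 0 (3.17%, 5.02% and 4.83%). An F-test over the 5 treatments together also called 0 of the 7, and 0 at an unadjusted p under 0.05, where 0% of all genes passed after adjustment and 2.25% before it.

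The regulators come first. Srebf2 in replicates 1 to 4 was at 57.2, 66.0, 50.5 and 43.8 CPM in the control group and at 52.5, 51.7, 49.7 and 52.1 CPM in the 13-3B5 group. It was at 46.9, 52.4, 57.7 and 48.3 CPM in the agrin group, at 59.0, 57.1, 50.6 and 54.5 CPM with 13-3B5xb12 and at 50.3, 52.4, 47.5 and 43.8 CPM with 11-3F6xb12. The control group held both the highest library and one of the 2 lowest. Its group means ran from 48.5 ± 3.74 CPM with 11-3F6xb12 (SD, n = 4) through 51.3 ± 4.83 with agrin, 51.5 ± 1.253 with 13-3B5 and 54.4 ± 9.49 in the control to 55.3 ± 3.62 with 13-3B5xb12. Neighbours in that order overlapped. Srebf2 had the smallest p of the 7 genes for 11-3F6xb12 against 13-3B5xb12, at -0.19 on the log2 scale (SE 0.10, edgeR adjusted p = 0.992).

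Insig1, a target of SREBP2 as well as its keeper, split each treatment by replicate number. In replicates 1 to 4 it was at 136, 124, 100.5 and 86.4 CPM in the control group and at 145, 144, 131 and 124 CPM in the 13-3B5 group. It was at 132, 149, 128 and 107 CPM with agrin, at 130.4, 140.0, 97.4 and 112 CPM with agrin and 13-3B5xb12, and at 152, 145, 133 and 98.9 CPM with agrin and 11-3F6xb12. In each of the 5 treatments both libraries of replicates 3-4 lay below both libraries of replicates 1-2. The group means, from low to high, were 112 ± 22.3 CPM in the control, 120.1 ± 18.9 with 13-3B5xb12, 129 ± 17.3 with agrin, 132 ± 23.5 with 11-3F6xb12 and 136 ± 10.2 with 13-3B5 (SD, n = 4 each). The largest of these differences, 13-3B5 against the control, was 0.28 on the log2 scale (SE 0.15) and did not pass (edgeR adjusted p = 0.999). The 13-3B5 library was higher than the control in 4 of 4 same-numbered pairs, and so was that of agrin with 11-3F6xb12. The share of all genes higher in 4 of 4 was not counted. With the replicate block the difference of 13-3B5 from the control was 0.30 (SE 0.08, unadjusted p = 0.000687 and adjusted p = 0.987, edgeR).

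**Figure D1:**
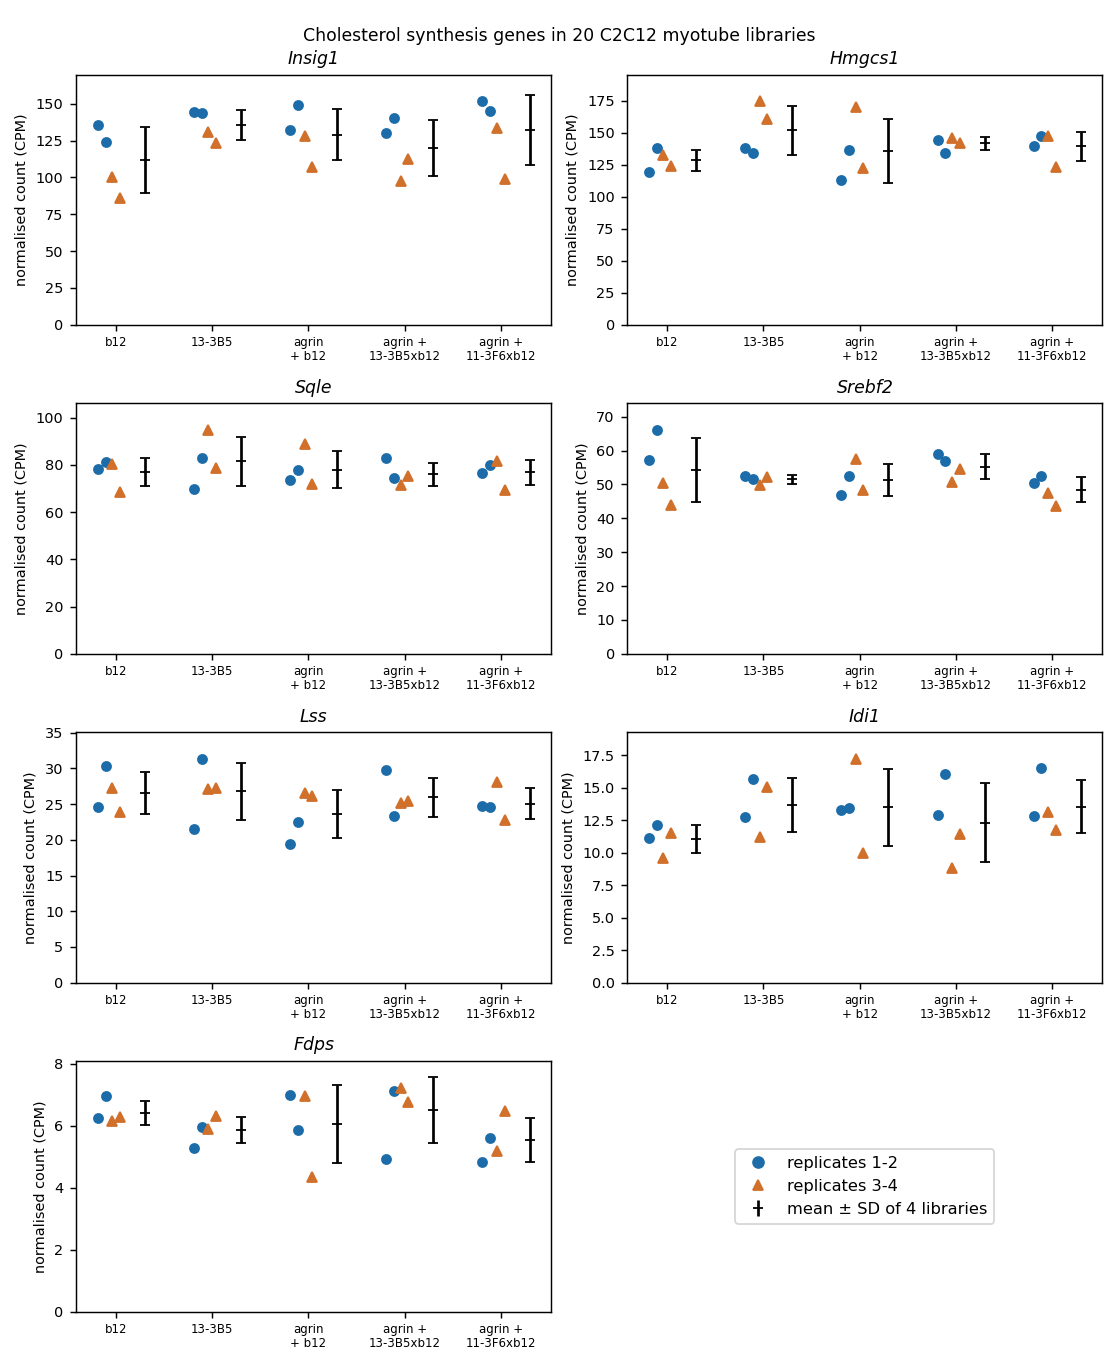
Normalised counts (CPM, y axis from 0) of the 7 genes in 5 treatments (x axis), 1 point for each of 20 libraries, with the mean and SD of 4 libraries as bars. For Insig1 both libraries of replicates 3-4 (triangles) lie below both of replicates 1-2 (circles) in all 5 treatments. This held for 2.26% of all genes.

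Hmgcs1, whose enzyme makes HMG-CoA early in the mevalonate route, gave the one unadjusted difference between treatments in the fit without the replicate block. It was at 119, 138, 132 and 124 CPM in replicates 1 to 4 of the control and at 138, 134, 174 and 160.4 CPM in the 13-3B5 group. The 2 highest libraries of the 13-3B5 group were replicates 3 and 4, and replicates 1 and 2 lay within or at the edge of the control range. The difference was 0.24 on the log2 scale (SE 0.10, unadjusted p = 0.021 and adjusted p = 0.999, edgeR). Within replicates 1-2 alone it was 0.08 (SE 0.11) and within replicates 3-4 alone 0.39 (SE 0.11), with edgeR adjusted p-values of 0.973 and 0.636. In the remaining groups Hmgcs1 was at 113, 137, 169.8 and 122 CPM with agrin, at 144, 134, 146 and 142 CPM with 13-3B5xb12 and at 139.6, 147, 147 and 123 CPM with 11-3F6xb12. The group means ran in the order control (128 ± 8.34 CPM), agrin (135 ± 25.0), 11-3F6xb12 (139 ± 11.5), 13-3B5xb12 (141 ± 5.02) and 13-3B5 (152 ± 18.99), and neighbours overlapped.

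The enzymes further down the route overlapped between treatments. Idi1 means ran from 11.1 ± 1.07 CPM in the control to 13.7 ± 2.08 CPM with 13-3B5 (SD, n = 4), on 188 to 408 counts a library. Its highest library was agrin replicate 3, at 17.2 CPM, and its lowest replicate 3 of agrin with 13-3B5xb12, at 8.82 CPM. Sqle, which makes the epoxide that is then cyclised, had group means of 76.0 ± 4.77 to 81.5 ± 10.4 CPM, with the highest library, 13-3B5 replicate 3, at 94.6 CPM and the lowest, control replicate 4, at 68.4 CPM. Lss, which closes the sterol rings, ran from 23.6 ± 3.38 CPM with agrin to 26.8 ± 3.99 CPM with 13-3B5. Fdps ran from 5.52 ± 0.710 CPM with 11-3F6xb12 to 6.502 ± 1.06 CPM with 13-3B5xb12. The ranges of the 4 libraries overlapped for every pair of treatments in each of the 7 genes.

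Side by side, the comparisons with the control share their 4 control libraries. Against the control, the fitted log2 differences of the 7 genes ran from -0.16 (Lss) to 0.28 (Idi1) with agrin, from -0.13 (Fdps) to 0.30 (Idi1) with 13-3B5, from -0.03 (Lss) to 0.15 (Idi1) with agrin and 13-3B5xb12, and from -0.21 (Fdps) to 0.29 (Idi1) with agrin and 11-3F6xb12. Against agrin they ran from -0.04 to 0.18 with 13-3B5, from -0.13 to 0.13 with 13-3B5xb12 and from -0.13 to 0.08 with 11-3F6xb12. Idi1 is the highest value in all 4 comparisons with the control, and with standard errors between 0.09 and 0.18 over the genes of these comparisons none of the values passed. By smallest p, the gene named was Idi1 for agrin against control (0.28, SE 0.17), Hmgcs1 for 13-3B5 against agrin (0.16, SE 0.10) and Lss for 13-3B5xb12 against agrin (0.13, SE 0.12). It was Srebf2 for 11-3F6xb12 against agrin (-0.08, SE 0.10) and against the control (-0.17, SE 0.10), and Hmgcs1 for 13-3B5xb12 against the control (0.14, SE 0.10). The Lss value was 0.35 in replicates 1-2 alone and -0.06 in replicates 3-4 alone, and the Srebf2 value against agrin was 0.04 and -0.21, so their directions turned between the replicate pairs. For Srebf2 against the control the same values were -0.27 and -0.04, for Idi1 0.20 and 0.37, and for the 2 other Hmgcs1 differences they kept their sign. Single libraries moved several of these values. Without agrin replicate 3, Idi1 for agrin against the control was 0.14, Hmgcs1 for 13-3B5 against agrin 0.29, Lss for 13-3B5xb12 against agrin 0.20 and Srebf2 for 11-3F6xb12 against agrin -0.02. The Hmgcs1 value was 0.09 without agrin replicate 1 or without 13-3B5 replicate 3. The Lss value was 0.05 without agrin replicate 1 and 0.06 without replicate 1 of 13-3B5xb12, and the Srebf2 value against agrin was -0.03 without replicate 4 of 11-3F6xb12. Srebf2 for 11-3F6xb12 against the control was -0.06 without control replicate 2 and -0.26 without control replicate 4.

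**Figure D2:**
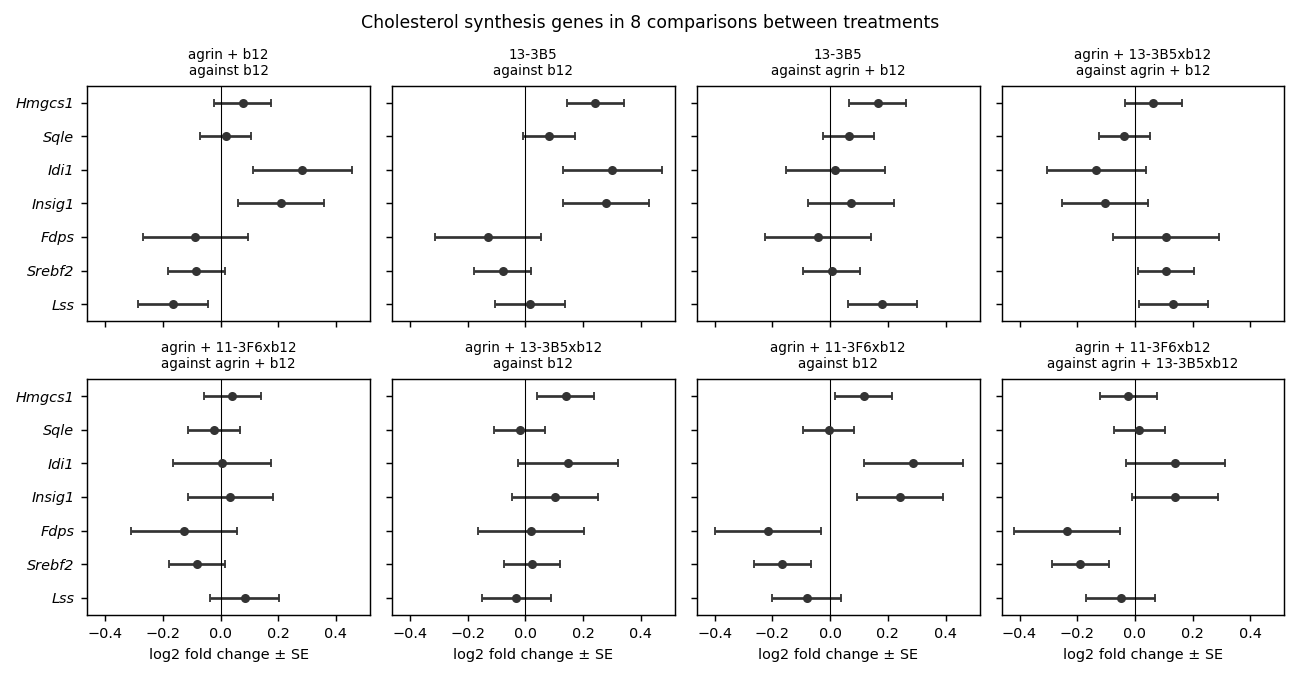
Log2 fold changes of the 7 genes (y axis) in 8 comparisons between treatments, with bars of 1 SE from edgeR's quasi-likelihood fit. No gene passed the adjusted threshold, and the values lie between -0.23 and 0.30.

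The second question was how the genes differed between replicates 3-4 and replicates 1-2, with treatment as a term in the fit. This split was taken because earlier results of these data had shown that it separates the libraries. Its p-values thus describe a known separation and do not test a factor set in advance. Of the 7 genes 1 passed, beside 13.1% of all genes tested, 7.13% lower and 5.93% higher in replicates 3-4. A share of 1 in 7 is near that background, and at an unadjusted p under 0.05 there were 2 of the 7, beside 24.4% of all genes. Insig1 fell by 0.33 on the log2 scale (SE 0.05, edgeR adjusted p = 1.81e-05), and was thus 1.254-fold higher in replicates 1-2. Its p ranked 299 of 14605. In replicates 1-2 the 10 libraries had a lowest value of 124, a median of 142 and a highest of 152 CPM, and in replicates 3-4 the same values were 86.4, 109.6 and 133 CPM. The ranges overlapped in part over the 10 and 10 libraries, as they did for all but 1.68% of genes. Within treatments, replicates 3-4 were lower with no overlap in 5 of 5, which held for 2.26% of all genes.

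The Insig1 difference was -0.48 on the log2 scale in the control, -0.18 with 13-3B5, -0.26 with agrin and -0.37 with each of the inhibiting antibodies, from 2 against 2 libraries each and with no test. The interaction of treatment with the replicate pairs was called for 0 of the 7 genes in edgeR's quasi-likelihood test, and for 0.00685% of all genes. Before adjustment it was again 0 of 7, beside 4.85% of all genes. The likelihood ratio test of DESeq2 called 0 of the 7, and its share of all genes was not counted. By replicate number, Insig1 averaged 139 ± 8.99, 140.3 ± 9.63, 118 ± 17.5 and 106 ± 14.1 CPM in numbers 1 to 4 (SD, n = 5 each). If the replicate number and not the library is the unit, 2 numbers stand against 2, and the exact two-sided permutation p is 0.333, the smallest this design allows. Without agrin replicate 3 the Insig1 value was -0.35 (edgeR adjusted p = 3.62e-06).

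The 6 other genes did not pass. Srebf2 differed by -0.13 on the log2 scale (SE 0.06, edgeR adjusted p = 0.134). Its mean was lower in replicates 3-4 in 4 of 5 treatments, agrin being the exception. The share of all genes lower in 4 of 5 was not counted. Without agrin replicate 3 Srebf2 passed, at -0.16 (edgeR adjusted p = 0.0359), in a fit whose share of all genes was not counted. It shrank to -0.10 without control replicate 2 and without control replicate 4 (edgeR adjusted p = 0.256 and 0.291). Idi1 differed by -0.19 (SE 0.10, edgeR adjusted p = 0.235), with a lower mean log2 level in 5 of 5 treatments, which held for 10.3% of all genes. Without agrin replicate 3 Idi1 was at -0.27 (edgeR adjusted p = 0.0516). Hmgcs1 went the other way, at 0.10 (SE 0.06, edgeR adjusted p = 0.323), with 134 ± 10.6 CPM in replicates 1-2 and 144 ± 19.2 CPM in replicates 3-4 (SD, n = 10 each). Lss stood at 0.05 (SE 0.07), Fdps at 0.04 (SE 0.12) and Sqle at 0.01 (SE 0.05), with edgeR adjusted p-values of 0.779, 0.884 and 0.966.

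Set against each other within a library, Hmgcs1 and Insig1 separated the replicate pairs almost wholly. Insig1 alone was already lower in replicates 3-4 with no overlap in 5 of 5 treatments, and Hmgcs1 did not pass. How many other genes separate the replicate pairs as far when set against Insig1 was not counted. The ratio of Hmgcs1 to Insig1 counts, chosen after the values had been seen and therefore not tested, needs no scaling between libraries. In replicates 1-2 it was 0.854 at the lowest, 0.944 at the median and 1.11 at the highest, and in replicates 3-4 it was 1.11, 1.31 and 1.49. In replicates 3-4, 9 of 10 libraries lay above the highest of replicates 1-2. The exception was replicate 3 of agrin with 11-3F6xb12, at 1.1055 against the 1.11007 of control replicate 2. The lowest ratio was that of agrin replicate 1 and the highest that of replicate 3 of agrin with 13-3B5xb12.

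**Figure D3:**
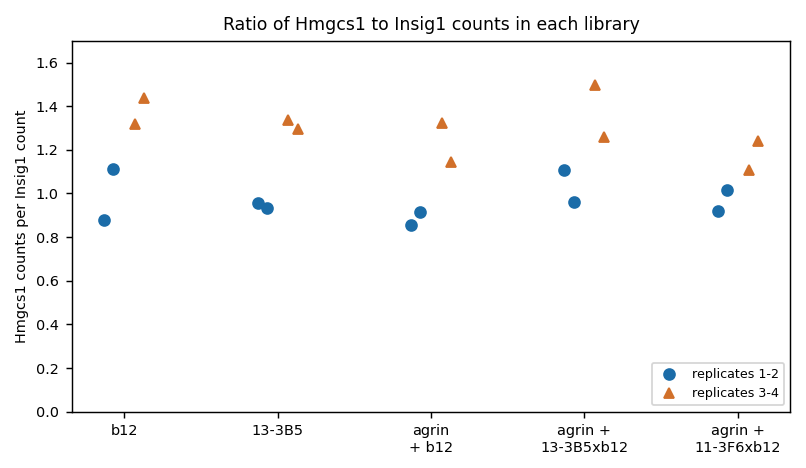
Hmgcs1 counts per Insig1 count (y axis from 0) in each of 20 libraries, by treatment (x axis) and by replicates 1-2 (circles) or 3-4 (triangles). In every treatment both triangles lie above both circles. Insig1 alone also separated them in every treatment.

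Other genes of sterol and lipid metabolism were followed through 7 lists of 66 genes, all of which were tested. Between the replicate pairs 6 of the 66 were higher and 5 lower in replicates 3-4, which is 16.7% of them, beside the 13.1% of all genes. Among 16 mevalonate and sterol enzymes, Fdft1, which makes squalene, was higher (0.23, SE 0.07) and Dhcr7, which catalyses the last step of one branch to cholesterol, was lower (-0.32, SE 0.09), with edgeR adjusted p-values of 0.0364 and 0.0130. Cyp51, the lanosterol demethylase, at -0.18, and Tm7sf2, a sterol reductase, at 0.25 did not pass (edgeR adjusted p = 0.0525 and 0.206). The median of the 16 was 0.01, as was that of the 7 genes and of all genes tested.

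Of the 11 genes for SREBP processing and sterol sensing 0 passed. The nearest were Mbtps1, the site-1 protease that cuts SREBPs, at 0.14, Srebf1, the paralogue of Srebf2, at 0.13, the E3 ligase gene Rnf139 at -0.07 and Erlin1 at -0.13 (edgeR adjusted p = 0.0649, 0.0977, 0.340 and 0.420). Insig2, the paralogue of Insig1, was at -0.06 (SE 0.05, edgeR adjusted p = 0.517), and is named after its value was seen. Of 8 genes for sterol uptake and transport 2 were higher in replicates 3-4, Npc2, which carries cholesterol out of lysosomes (0.18, SE 0.04), and Scarb1, the high-density lipoprotein receptor (0.38, SE 0.12). Tmem97, at 0.10 (SE 0.08), did not pass.

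Genes further from synthesis passed in both directions. Of 6 genes for sterol efflux, the transporter gene Abcg1 was higher (0.20, SE 0.07) and Apoe, the apolipoprotein, lower (-0.95, SE 0.20), with means of 26.0 and 13.5 CPM in replicates 1-2 and 3-4. The liver X receptor gene Nr1h3 (-0.62) and the transporter gene Abca1 (0.10) did not pass. Of 4 genes for sterol esters, the lysosomal lipase gene Lipa was higher (0.22, SE 0.05) and the ester hydrolase gene Nceh1 lower (-0.37, SE 0.05), while Soat1 (0.08) and Plin2 (0.05) did not pass. Of 12 fatty acid genes, Acly, which makes cytosolic acetyl-CoA from citrate, was higher (0.21, SE 0.04) and Acss2, which makes it from acetate, lower (-0.55, SE 0.09), and Scd1 (-0.12) and Gpam (-0.11) did not pass. Of 9 genes of the nonsterol branch, Fnta, a farnesyltransferase subunit, was lower (-0.19, SE 0.04), and Nus1 (0.25), Ggps1 (0.12) and Fntb (0.21) did not pass. Cell markers moved between the same libraries. Of the 10 myotube markers Ckm and Tnnt3 were lower and Mymx higher in replicates 3-4, 3 of 6 fibroblast markers were lower, and of 8 dividing myoblast markers Ccnb1 was lower. Their part in the Insig1 value was not tested. Among the 66 genes 0 passed in any edgeR comparison between treatments, where 0% of all genes passed. In the edgeR F-test over treatments 3 of the 66 had an unadjusted p under 0.05, beside 2.25% of all genes.

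**Figure D4:**
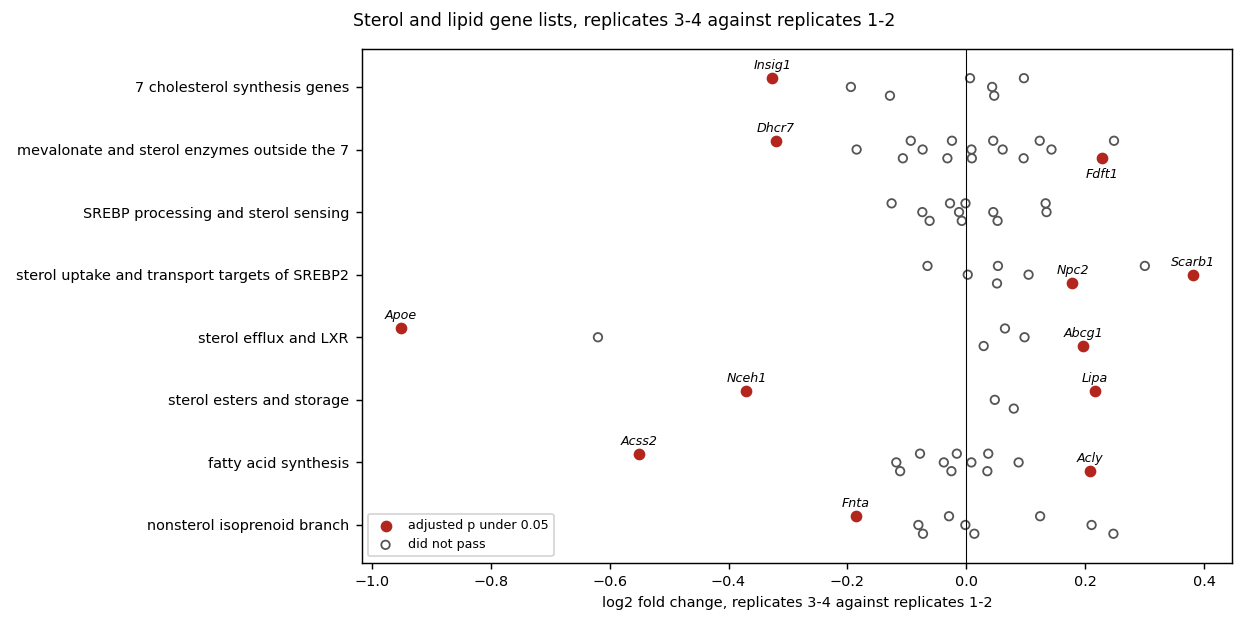
Log2 fold change between replicates 3-4 and replicates 1-2 (x axis) for the 7 genes and 7 lists of related genes (y axis), 1 point a gene, filled where the edgeR adjusted p was under 0.05. Insig1 is the one filled point among the 7, and the filled points of most lists lie on both sides of 0.

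The third question was whether the genes moved together from library to library. Since the libraries fall into 2 clusters, correlations of log2 CPM were taken within the 10 libraries of replicates 1-2 and the 10 of replicates 3-4, for 21 pairs each, and the 42 p-values from 100000 resamples were adjusted together. The resamples shuffled the 10 libraries freely, although these share treatments and replicate numbers. The permutation p-values thus treat related libraries as independent and may be too small. Of the 21 pairs 13 were positive in replicates 1-2, with a median r of 0.11, and 19 in replicates 3-4, with a median r of 0.54. By Pearson's r 0 pairs passed in either set, with 1 and 6 pairs at an unadjusted permutation p under 0.05, and by Spearman's rho 1 pair passed in each. Without agrin replicate 3, replicates 3-4 had 16 positive pairs and a median r of 0.42 over 9 libraries. Leaving out the 2 libraries farthest from the median of the first gene of each pair gave medians of 0.00 and 0.45. The difference between the sets was not tested.

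Sqle and Lss, which act in succession on squalene, went together in both sets. Their r was 0.85 in replicates 1-2 (n = 10, permutation p = 0.00244, adjusted 0.0512) and rho 0.88 (permutation p = 0.00178, adjusted 0.0374), and r was 0.86 without the 2 farthest libraries. In replicates 3-4 r was 0.72 (n = 10, permutation p = 0.0177, adjusted 0.124) and rho 0.78 (permutation p = 0.011, adjusted 0.106), with r at 0.90 without the 2 farthest. The values in replicates 3-4 were r = 0.75 and rho = 0.85 over the 9 libraries without agrin replicate 3. Of these only the rank correlation in replicates 1-2 passed, and with DESeq2 size factors 0 rank correlations passed in either set.

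Insig1 had values of opposite sign in the 2 sets against some genes. Against Sqle its r was -0.27 in replicates 1-2 (n = 10, permutation p = 0.447, adjusted 0.586) with rho -0.28 (permutation p = 0.429, adjusted 0.693). In replicates 3-4 the r was 0.81 (n = 10, permutation p = 0.00447, adjusted 0.0626), rho 0.88 (permutation p = 0.0017, adjusted 0.0374) and r without the 2 farthest libraries 0.77. Over the 9 libraries without agrin replicate 3 the r was 0.78, and the call of the rank correlation was also lost with DESeq2 size factors. Against Srebf2 the r was -0.62 in replicates 1-2 (n = 10, permutation p = 0.0536, adjusted 0.250; rho -0.58, permutation p = 0.0872, adjusted 0.438) and 0.54 in replicates 3-4 (n = 10, permutation p = 0.107, adjusted 0.309; rho 0.31, permutation p = 0.387, adjusted 0.693). Without the 2 farthest libraries these were 0.00 and 0.56, so the negative value rests on those 2 libraries. The second value was 0.44 without agrin replicate 3.

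Hmgcs1 and Sqle were at r = 0.32 in replicates 1-2 (n = 10, permutation p = 0.368, adjusted 0.572; rho 0.20, permutation p = 0.582, adjusted 0.750) and at r = 0.85 in replicates 3-4 (n = 10, permutation p = 0.00197, adjusted 0.0512; rho 0.78, permutation p = 0.0103, adjusted 0.106). The second value was 0.65 without the 2 farthest libraries and 0.82 without agrin replicate 3. Fdps stood outside the group, with r between -0.58 and 0.21 to the others in replicates 1-2 and between -0.32 and 0.33 in replicates 3-4. It is also the gene with the fewest counts, and the part of counting noise in its low values was not tested.

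**Figure D5:**
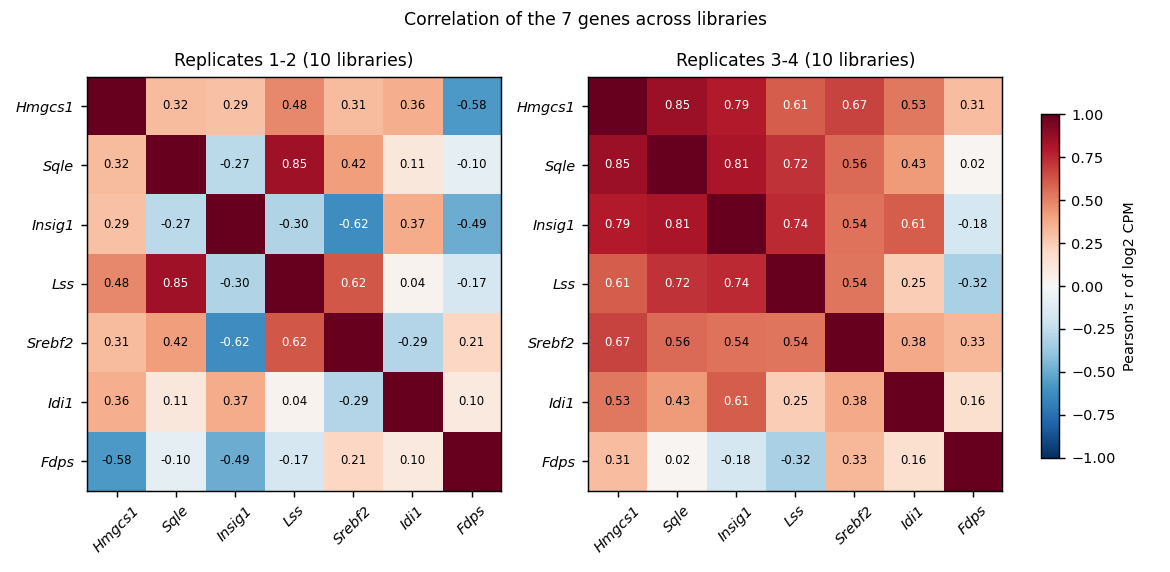
Pearson's r of log2 CPM between the 7 genes (both axes) over the 10 libraries of replicates 1-2 (left) and of replicates 3-4 (right), with the value in each cell. In replicates 3-4, 19 of 21 pairs are positive, and both negative ones include Fdps.

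To find the genes most like the 7, each gene was centred on its mean within each replicate pair, and its r with the mean of the 7 centred and scaled genes was taken over 20 libraries. This is a description with no p, since the libraries share treatments and replicate numbers. Of the 7, Hmgcs1 (0.77) and Sqle (0.75) followed the mean of the other members most closely, then Srebf2 (0.54), Insig1 (0.49), Idi1 (0.43) and Lss (0.42), and Fdps did not (-0.02). The mean was highest in agrin replicate 3, at 1.38 in units of standard deviations, and lowest in control replicate 4, at -1.01.

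Among 11142 other genes, those closest included Ncapg, a condensin subunit (0.90), Zfta (0.84), Ncapg2 (0.82), Pkhd1 (0.81), Prkag3 (0.80), the histone gene H3c8 (0.78), the embryonic myosin gene Myh3 (0.78) and Esco2 (0.78). Of all these genes 3.05% had an r above 0.5, and the median was -0.02. Among the pathway enzymes 7 of 16 were above 0.5, with a median of 0.49, and among fatty acid genes 2 of 12, with a median of 0.39. The genes for SREBP processing had a median of -0.08. The farthest were Tspan15 (-0.75), Hmgb1 (-0.75), Angptl2 (-0.76), Apobr (-0.76) and Copz2 (-0.76).

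Genes of dividing cells were among the closest. Of 7 markers of dividing myoblasts expressed highly enough, 5 were above 0.5, with a median of 0.66. Myf5 went the other way, at -0.51. Of 10 myotube markers 1 was above 0.5, Myh3, with a median of 0.07, and of 6 fibroblast markers 0, with a median of 0.20. The summed level of all 8 dividing myoblast markers was also highest in agrin replicate 3, at 239 CPM. The next highest sum, 233 CPM in agrin replicate 2, stood beside a mean of the 7 genes of -0.09. The sum after it, 224 CPM in replicate 2 of agrin with 11-3F6xb12, stood beside a mean of 0.26. The lowest sum, 126 CPM in control replicate 3, stood beside a mean of -0.24. The sums next above it, 127 CPM in replicate 4 of agrin with 11-3F6xb12 and 129 CPM in control replicate 4, stood beside -0.84 and -1.01. Without agrin replicate 3, r was 0.86 for Ncapg and 0.77 for Zfta over 19 libraries, the enzymes had a median of 0.46, and the dividing markers had a median of 0.50. Within replicates 1-2 and replicates 3-4 apart, Ncapg was at 0.81 and 0.96, Ncapg2 at 0.75 and 0.87 and Pkhd1 at 0.68 and 0.80. In the same order Esco2 was at 0.62 and 0.84, Prkag3 at 0.51 and 0.88 and Zfta at 0.50 and 0.93. Myh3 was at 0.48 and 0.93 and H3c8 at 0.47 and 0.89. The part of dividing cells in the shared movement of the 7 genes was not tested.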

How the data were processed

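Total RNA of 20 C2C12 libraries was extracted with a Qiagen miRNAeasy kit, prepared with TruSeq Stranded Total RNA and Ribo-Zero and read as pairs of 150 bases on a NovaSeq, per the labels' protocols. The deposited table holds raw gene counts, as whole numbers that the authors did not normalize. The submitters' processing notes name Trim Galore 0.6.6, cutadapt 2.10, STAR 2.7.6a, HTSeq 0.12.4, DESeq2 1.32.0 and GRCm38. The annotation release, the strand setting, the treatment of reads in overlapping genes and of duplicates are not given in the sources used here.

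Groups and replicate numbers came from the titles, and each column matched 1 library. No 2 libraries of a treatment agreed within sampling noise (chi-square of at least 5.17 per gene). The 26 rows without a symbol are Ensembl genes and stayed in. In R 4.3.3 and edgeR 4.0.16, filterByExpr (minimum count 10, minimum total 15) kept 14605 genes, libraries were scaled by TMM, and robust quasi-likelihood models of all 20 libraries were fitted, with treatment alone, with treatment and replicate pair, and with their interaction. Tests were two-sided, adjusted by Benjamini-Hochberg over all genes, with a threshold of 0.05. The tests were tried on simulated counts. CPM are TMM-scaled, and log2 CPM used a prior count of 2. Correlations used Python 3.11.15 with numpy 2.4.6. Alternatives were DESeq2 1.42.0 (test and size factors), other filters and prior counts, single treatments or replicate pairs, the replicate block, and each library left out in turn.

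The members and lists were chosen with earlier results of these data known. All 7 genes were to be named with their libraries, the member with the smallest p in each treatment comparison, up to 4 genes of each list by p between the replicate pairs, and the 10 most and 5 least alike genes with mean log2 CPM above 1. Some genes that the rule names are not reported here. The same replicate number marks nothing the labels state. Deviations of same-numbered libraries correlated at 0.20 on average, as did those of the other number in the same pair of replicates (0.20), against -0.20 across pairs.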

Additional observations from a re-analysis of the deposited data

How the results depend on the processing

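The 144 alternatives of the 8 treatment comparisons and the 30 of the F-test over treatments each called 0 of the 7 genes. With the replicate block, the paired fit also called 0 of the 7 in all 8 comparisons, where it called at most 0.0342% of all genes. In the other alternatives the share of all genes was not counted. All 4 same-numbered pairs correlated above 0.1 in 4 of the 8 comparisons, and 11 of 20 libraries correlated best with their own number. Restricting the fit to replicates 1-2 turned Srebf2 to 0.0430 for 11-3F6xb12 against agrin, and restricting it to replicates 3-4 turned Lss to -0.0583 for 13-3B5xb12 against agrin. The cause was not tested.

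Between the replicate pairs, the count of genes called was 1 under the 7 other alternatives and 1 to 2 when each library was left out in turn, the second being Srebf2 without agrin replicate 3. Insig1 kept its direction and its call when each library was left out (-0.36 to -0.30, edgeR adjusted p 3.62e-06 to 7.18e-05). Under the alternatives of scaling, filter, model and tool that gave a test, its adjusted p in edgeR or DESeq2 ran from 2.51e-09 to 0.000843. The log2 values of Sqle (-0.0262 to 0.0292) and Fdps (-0.00454 to 0.103) changed sign as libraries were left out. With DESeq2 size factors 1 pair of genes passed by Pearson's r in replicates 1-2 and 1 in replicates 3-4, where 0 passed with TMM. By Spearman's rho 0 and 0 passed, where 1 and 1 passed with TMM. With treatment means removed the median r was 0.07 and 0.63, from only 5 independent values among the 10 libraries of each set, so no p was taken. Leaving out agrin replicate 3 from the correlations and leaving out control replicate 2 with agrin and 13-3B5xb12 replicate 1 were chosen after the data had been seen.

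With 4 libraries a group, standard errors of 0.09 to 0.18 on the log2 scale limit what a treatment comparison of these genes can show. Fdps, with 100 to 170 counts a library, has the widest.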
